A study of Saccharomyces cerevisiae with 9 samples.

Results

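The hexose transporters HXT1 to HXT7 and the glucose sensors SNF3 and RGT2 were chosen by gene name, and all 9 were found by systematic name among the 6868 features of the arrays. All 9 had a value on every array, as did 5645 features in all. Each value is a log2 ratio, with cells treated for 30 min with 0.7 M NaCl over unstressed cells of that strain, so 1 unit is a doubling and a negative value is a fall after NaCl. The strains were budding yeast grown in YPD, a rich glucose medium, at 30°C. None of them had an endogenous RPB1 gene, and each carried Rpb1, the largest subunit of RNA polymerase II, on a plasmid. In S5A cells (labelled CTD5A) and S2A cells (CTD2A), part of the repeats of the Rpb1 C-terminal domain (CTD) had alanine in place of Ser5 or Ser2, and repeats of normal sequence followed them. The wild-type cells (CTD14) had a plasmid with normal repeats alone. The mutants are therefore partial, and their CTDs also differ from wild-type in the number of repeats. There were 3 arrays per strain, 9 in all. The labels do not say that replicates were separate cultures, so the p-values below measure the spread between these arrays.

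Yeast takes up glucose by facilitated diffusion through the Hxt proteins. Hxt1 and Hxt3 are low-affinity carriers that serve when glucose is plentiful, Hxt6 and Hxt7 are high-affinity carriers, Hxt2 and Hxt4 have moderate to high affinity, and Hxt5 is a carrier known for its appearance in slow-growing or starved cells. Snf3 and Rgt2 look like transporters but act as sensors, of low and of high glucose. They signal through the casein kinases Yck1 and Yck2 to the corepressors Mth1 and Std1, whose destruction through Grr1 releases HXT genes from the repressor Rgt1.

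The arrays had been centred, with medians between -0.00135 and -0.00011, so a change in total mRNA per cell is not visible in these ratios, and a smaller share of responding cells cannot be told apart from a smaller change in each cell. The spread over features (median absolute deviation) was 0.700 to 0.805 on the S5A arrays, 0.867 to 0.924 on the S2A arrays and 0.827 to 1.02 on the wild-type arrays. As a check of direction, 6 genes known to be induced by osmotic stress (GPD1, GPP2, CTT1, HSP12, STL1 and ENA1) had ratios of 1.70 to 9.24 over the 9 arrays. Wild-type replicate 2 stood apart, for this gene family and over all features. Its correlations with wild-type replicates 1 and 3 were 0.884 and 0.913, while those 2 arrays correlated at 0.944. It was the highest wild-type array for 8 of the 9 genes, against 40.9% of all features, and the exception was HXT5. Its distance above the wild-type mean was 1.14 for HXT2, 0.94 for HXT4, 0.80 for HXT7 and 0.66 for HXT6. Where leaving it out changed a call or moved an S5A minus wild-type difference by over 1.5 times, the value without it is given.

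**Figure D1:**
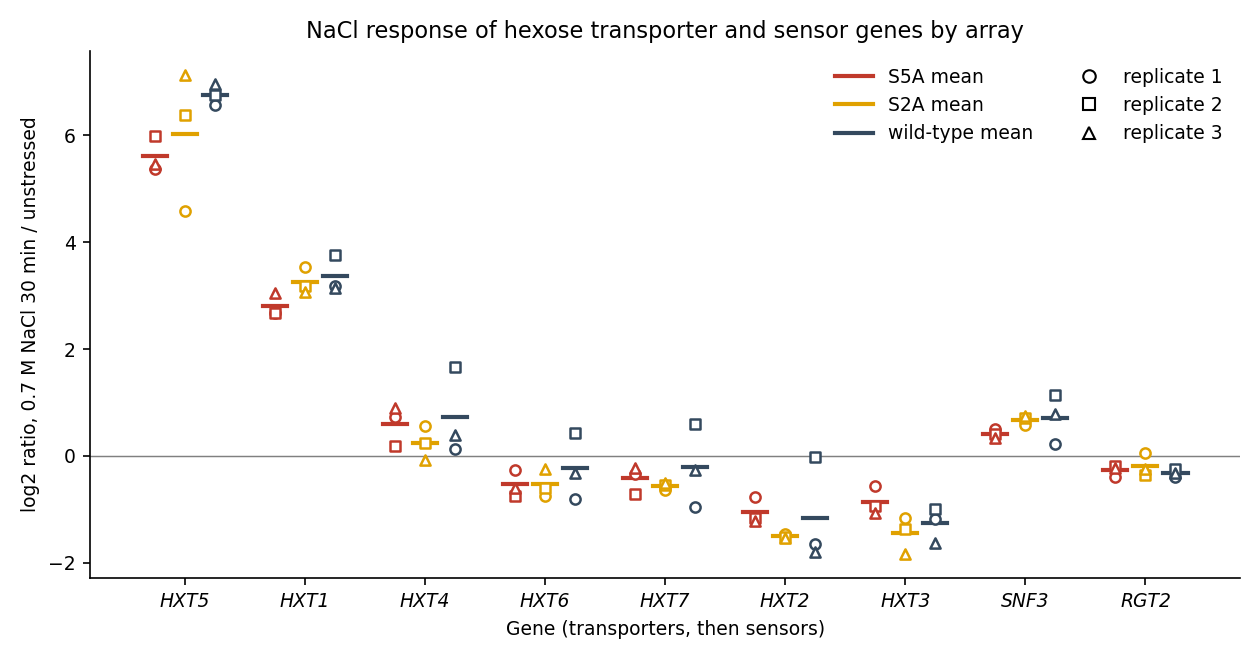
Log2 ratio of NaCl-treated over unstressed cells (vertical axis) for each gene (horizontal axis), with 1 point per array, the replicate given by its shape and the strain mean by a bar. HXT5 and HXT1 lie far above 0 in all 3 strains, between 4.59 and 7.14 and between 2.68 and 3.77, while HXT2 and HXT3 lie below 0 on every array.

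Salt moved the family in opposite directions. HXT5 and HXT1 rose steeply in all 3 strains, HXT3 and HXT2 fell in all 3 by 1.81-fold to 2.84-fold on average, and the means of HXT4, HXT6, HXT7 and the sensors lay within 1 log2 unit of 0. In S5A 7 of the 9 genes passed an adjusted p of 0.05 (3 higher and 4 lower; limma, Benjamini-Hochberg), where 63.1% of all features did. In S2A it was also 7 of 9 (3 and 4; 68.7% of all features), and in wild-type 7 of 9 (4 and 3; 70.6%). The share of genes that responded was thus near that of the array as a whole. The median response of the 9 genes was -0.27 in S5A, -0.18 in S2A and -0.21 in wild-type, beside -0.067, -0.043 and -0.062 over all features. The S5A count fell to 4 without S5A replicate 2 or without S5A replicate 3.

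HXT5 (YHR096C) had the highest response of the family on every array. The log2 ratios were 5.37, 5.98 and 5.47 in S5A, 4.59, 6.38 and 7.14 in S2A, and 6.56, 6.76 and 6.96 in wild-type. All 3 S5A arrays lay below all wild-type arrays, whereas the S2A arrays spread on both sides of them. The means correspond to a 48.8-fold rise in S5A, a 65.6-fold rise in S2A and a 108.5-fold rise in wild-type (limma adjusted p = 9.64e-07, 2.18e-07 and 1.05e-07). HXT5 ranked 11 of 5645 features in S5A, 10 in S2A and 8 in wild-type. Its spread over the S2A arrays (SD 1.31, n = 3) was larger than that of 99.8% of features in S2A, while in S5A it was 0.33 and in wild-type 0.20 (n = 3 each). The median SD over all features was 0.17 in S5A, 0.19 in S2A and 0.22 in wild-type. S2A replicate 1 was the low array, and without it the S2A mean was 6.76.

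The features whose ratios lay closest to HXT5 over the 9 arrays, by mean absolute difference, were CTT1, the cytosolic catalase (0.61), PHM7 (0.68) and TKL2, a transketolase (0.75). CTT1 averaged 5.91 in S5A, 6.61 in S2A and 6.57 in wild-type.

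HXT1 (YHR094C) rose on every array, by 2.68, 2.68 and 3.05 in S5A, by 3.53, 3.18 and 3.08 in S2A, and by 3.18, 3.77 and 3.15 in wild-type. The S5A values lay below those of both other strains, and the S2A and wild-type values overlapped. As fold changes the means were 6.98 in S5A, 9.60 in S2A and 10.3 in wild-type (limma adjusted p = 2.49e-07, 3.81e-08 and 3.05e-08). HXT1 ranked 56 of 5645 features in S5A, 69 in S2A and 63 in wild-type. On the same array HXT1 minus HXT5 was -3.30 to -2.42 in S5A, -4.06 to -1.06 in S2A and -3.82 to -2.99 in wild-type, so the order of the pair was the same on all 9 arrays.

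HXT3 (YDR345C), the other low-affinity carrier, moved the opposite way. Its ratios were -0.55, -0.94 and -1.07 in S5A, -1.16, -1.36 and -1.83 in S2A, and -1.18, -0.99 and -1.62 in wild-type. It fell on all 9 arrays, and the S5A values were higher than all S2A values but overlapped those of wild-type. The mean was -0.86 in S5A, -1.45 in S2A and -1.26 in wild-type (limma adjusted p = 0.000981, 1.73e-05 and 4.85e-05). HXT1 thus exceeded HXT3 on each array, by 3.24 to 4.13 in S5A, 4.54 to 4.91 in S2A and 4.35 to 4.77 in wild-type. The S5A range did not meet the others in the deposited ratios, but did after each array was scaled to a common spread. The scaled means of HXT1 were 3.22 in S5A, 3.08 in S2A and 3.11 in wild-type, and those of HXT3 -0.98, -1.38 and -1.18. The features closest to HXT3 over the 9 arrays were SSB1, a ribosome-associated Hsp70 chaperone (mean absolute difference 0.11), GUA1, GMP synthase (0.13), and SAM2, an S-adenosylmethionine synthetase (0.14).

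HXT2 (YMR011W) fell in each strain too, with 1 array that hardly moved. The ratios were -0.76, -1.16 and -1.23 in S5A, -1.47, -1.52 and -1.53 in S2A, and -1.65, -0.02 and -1.80 in wild-type. The S2A arrays were nearly equal, the S5A arrays lay above them, and the wild-type values spread around both. Means were -1.05 in S5A, -1.50 in S2A and -1.16 in wild-type (limma adjusted p = 0.00653, 0.000574 and 0.00305). Without wild-type replicate 2 the wild-type mean was -1.73. HXT2 and HXT3 responses were alike, the difference on an array (HXT2 minus HXT3) being -0.22 to -0.15 in S5A, -0.31 to 0.31 in S2A and -0.47 to 0.97 in wild-type, with the last value from wild-type replicate 2.

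HXT4 (YHR092C) had small positive ratios. They were 0.73, 0.18 and 0.89 in S5A, 0.56, 0.24 and -0.08 in S2A, and 0.12, 1.67 and 0.40 in wild-type. The 3 strains overlapped, and wild-type replicate 2 was well above every other array. The mean of 0.73 in wild-type passed the test (limma adjusted p = 0.0261), those of 0.60 in S5A and 0.24 in S2A did not (0.0624 and 0.425). In S5A HXT4 passed after quantile normalization (0.0161) or scaling (0.0191), with array weights (0.0181) and by Storey's q-value (0.0127). Without wild-type replicate 2 the wild-type mean was 0.26 (adjusted p = 0.260), while HXT4 passed in S5A without it (0.00776) or without wild-type replicate 1 (0.0435).

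**Figure D2:**
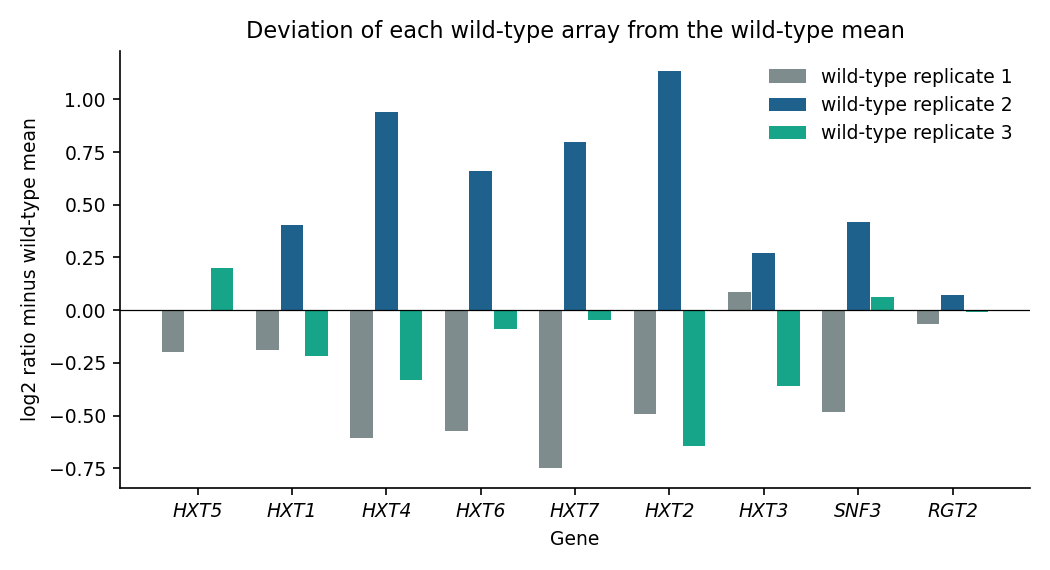
Log2 ratio of each wild-type array minus the wild-type mean (vertical axis) for each gene (horizontal axis). Replicate 2 is the highest for 8 of 9 genes and lies 1.14 above the mean for HXT2, whereas HXT5 ranges only from 6.56 to 6.96 in wild-type.

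HXT6 (YDR343C) and HXT7 (YDR342C) are nearly identical neighbouring genes, so their probes may have bound both mRNAs and the pair is best read as a single measurement. HXT6 had ratios of -0.26, -0.74 and -0.60 in S5A, -0.74, -0.60 and -0.24 in S2A, and -0.80, 0.44 and -0.31 in wild-type. HXT7 had -0.33, -0.70 and -0.23 in S5A, -0.64, -0.54 and -0.50 in S2A, and -0.96, 0.59 and -0.26 in wild-type. Both were below 0 on 8 of 9 arrays, the exception being wild-type replicate 2. On the same array HXT6 minus HXT7 was -0.38 to 0.07 in S5A, -0.10 to 0.26 in S2A and -0.15 to 0.16 in wild-type.

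The mean response of HXT6 was -0.53 in S5A, -0.53 in S2A and -0.22 in wild-type (limma adjusted p = 0.0376, 0.0358 and 0.334). For HXT7 it was -0.42, -0.56 and -0.21 (0.122, 0.0440 and 0.425). These calls were not firm. The HXT6 call in S5A did not hold when S5A replicate 2 (adjusted p = 0.178) or 3 (0.130) or wild-type replicate 3 (0.0518) was left out, nor with the replicate number as a block (0.0501). HXT6 in S2A was lost without S2A replicate 1 (0.171) or S2A replicate 2 (0.124). The HXT7 call in S2A was lost when any S2A array (0.0949 to 0.142), any S5A array (0.0501 to 0.0568) or wild-type replicate 3 (0.0603) was left out, and with the block (0.0506). HXT7 passed in S5A when wild-type replicate 1 (0.0391) or 2 (0.0242) was left out. Without wild-type replicate 2 the wild-type means were -0.56 for HXT6 and -0.61 for HXT7, and both passed (adjusted p = 0.0172 and 0.0118). Without wild-type replicate 1 they were 0.063 and 0.17.

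The sensors had small mean responses, above 0 for SNF3 and below 0 for RGT2, and that of RGT2 did not pass in S2A. SNF3 (YDL194W), the low-glucose sensor, rose by 0.51, 0.41 and 0.34 in S5A, by 0.57, 0.71 and 0.74 in S2A, and by 0.23, 1.13 and 0.78 in wild-type. It was above 0 on all 9 arrays, and the S5A values lay below the S2A values and within the wild-type range. Its mean was 0.42 in S5A, 0.68 in S2A and 0.71 in wild-type (limma adjusted p = 0.0268, 0.00173 and 0.00122). The S5A call was lost without S5A replicate 1 (0.113), 2 (0.0859) or 3 (0.0648).

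RGT2 (YDL138W), the high-glucose sensor, had ratios of -0.39, -0.19 and -0.22 in S5A, 0.05, -0.36 and -0.24 in S2A, and -0.38, -0.24 and -0.33 in wild-type. The strains overlapped. The mean was -0.27 in S5A, -0.18 in S2A and -0.32 in wild-type (limma adjusted p = 0.0421, 0.137 and 0.0167). The wild-type call did not hold when wild-type replicate 1 (0.0767) or 3 (0.0637) was left out. The S5A call did not hold when any S5A array (0.0826 to 0.199), S2A replicate 3 (0.0566) or wild-type replicate 1 (0.0506) or 3 (0.0577) was left out. In S2A the fall passed without S2A replicate 1 (0.0384). SNF3 exceeded RGT2 on every array, by 0.56 to 0.90 in S5A, 0.52 to 1.07 in S2A and 0.61 to 1.38 in wild-type.

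Ranked by mean response, HXT5 came first and HXT1 second in each strain, separated from each other and from the rest without overlap between arrays. Below them, HXT4 and SNF3 overlapped in S5A and in wild-type, and SNF3 lay above HXT4 without overlap in S2A. HXT6, HXT7 and RGT2 followed, each overlapping the next in order. HXT3 and HXT2 were lowest in all 3 strains and overlapped each other, and the only gap above them was in S2A.

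**Figure D3:**
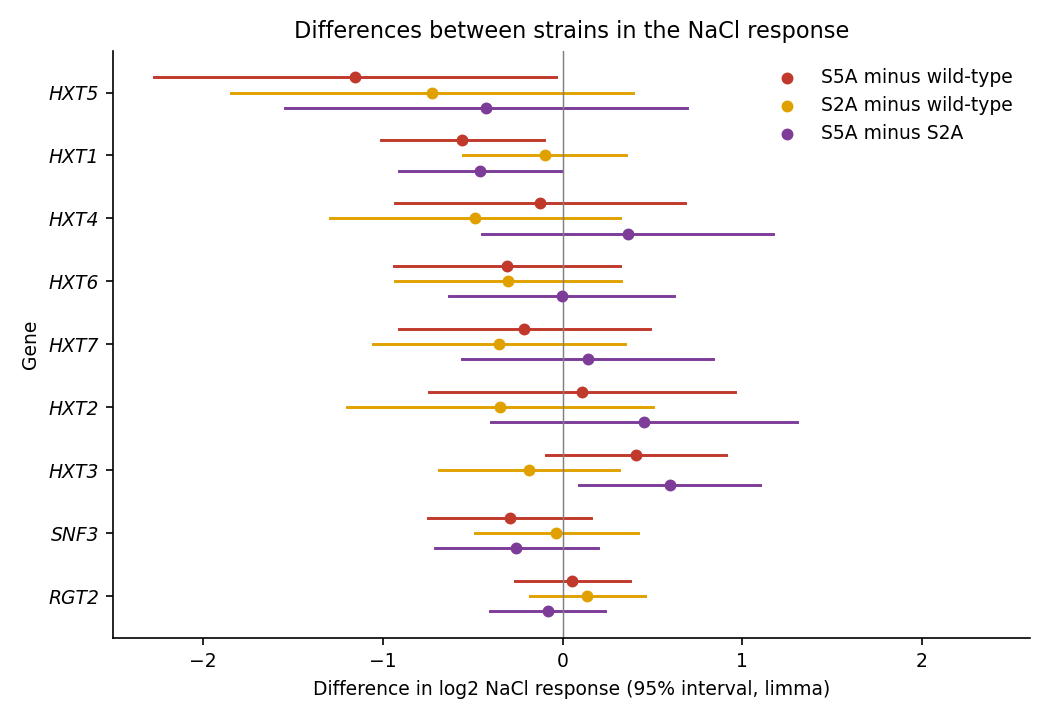
Difference between strains in the log2 NaCl response (horizontal axis; point, limma estimate; line, 95% interval) for each gene (vertical axis). None of the differences passed the threshold after adjustment over all features, although the intervals of HXT5 and HXT1 for S5A minus wild-type, and of HXT1 and HXT3 for S5A minus S2A, leave out 0.

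The CTD mutants were compared with wild-type to ask whether the response depended on Ser5 or Ser2 of the CTD. For this family no gene was called different at the threshold of an adjusted p of 0.025 or below. In S5A against wild-type it was 0 of 9 genes, where limma called 7.95% of all features (4.13% higher and 3.83% lower in S5A). In S2A against wild-type it was 0 of 9 (0% of all features), and in S5A against S2A 0 of 9 (3.31%, with 1.51% higher and 1.81% lower in S5A). Before adjustment, p was below 0.05 for 2 genes in S5A against wild-type, 0 in S2A against wild-type and 2 in S5A against S2A, beside 31.6%, 8.49% and 27.3% of all features. The arrays of 2 of 9 genes (HXT1 and HXT5) did not overlap between S5A and wild-type, both lower in S5A, where 37.7% of all features had no overlap (18.5% lower and 19.1% higher). Between S2A and wild-type it was 0 of 9 genes (12.5% of all features, 6.25% lower and 6.24% higher), and between S5A and S2A 4 of 9, namely HXT1 and SNF3, lower in S5A, and HXT2 and HXT3, higher in S5A (37% of all features, 18.2% lower and 18.7% higher).

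HXT5 had the largest S5A minus wild-type estimate of the family. Its call depended on which arrays entered the fit, and its sign on scaling. The response in S5A averaged 5.61 ± 0.33 and in wild-type 6.76 ± 0.20 (SD, n = 3 each), and S5A minus wild-type was -1.15 (95% interval -2.27 to -0.035; limma adjusted p = 0.148). The fit takes the spread from all 9 arrays, and for HXT5 the S2A arrays had by far the widest. With only the S5A and wild-type arrays the adjusted p was 0.0139, and without S2A replicate 1 it was 0.0150, both past the threshold with the same estimate. Once each array was scaled to a common spread, the mean was 6.40 in S5A and 6.28 in wild-type, and the difference was 0.12 (adjusted p = 0.909). Scaling gives every array the same spread by construction, so a response that is weaker across the whole array cannot be told apart from a difference in array scale. S2A averaged 6.04 ± 1.31 (SD, n = 3), and S2A minus wild-type was -0.73 (95% interval -1.84 to 0.39; adjusted p = 0.650). Without S2A replicate 1 it was -0.0017, and without S2A replicate 3 it was -1.28.

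**Figure D4:**
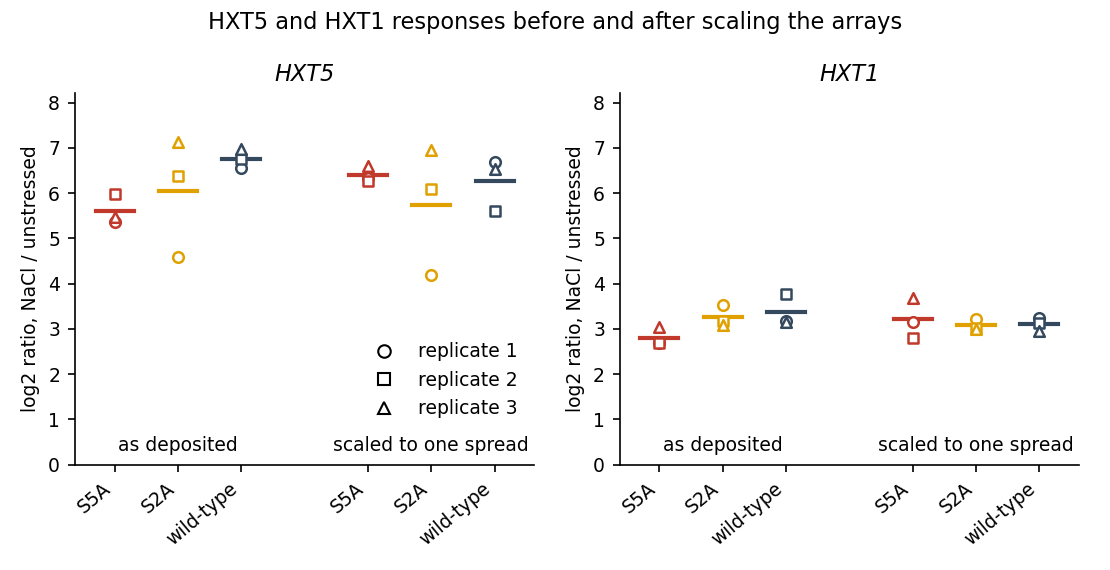
Log2 ratio of HXT5 (left) and HXT1 (right) on each array (vertical axis), by strain, as deposited and after scaling every array to a common spread, with the strain mean as a bar. The S5A arrays lie below the wild-type arrays as deposited, and the strain means of S5A and wild-type are 6.40 and 6.28 for HXT5 and 3.22 and 3.11 for HXT1 after scaling.

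HXT1 averaged 2.80 ± 0.21 in S5A and 3.36 ± 0.35 in wild-type (SD, n = 3 each). The S5A minus wild-type difference was -0.56 (95% interval -1.01 to -0.11; limma adjusted p = 0.0914). It was -0.36 without wild-type replicate 2, and it turned to 0.11 after scaling and to 0.22 after quantile normalization. S5A minus S2A was -0.46 (95% interval -0.91 to -0.0057; adjusted p = 0.178), with 0.13 and 0.18 after the same steps. HXT3 fell less in S5A than in S2A by 0.60 (95% interval 0.092 to 1.10; adjusted p = 0.123), and less than in wild-type by 0.41 (-0.095 to 0.91; adjusted p = 0.245), or by 0.23 without wild-type replicate 3 and 0.26 without S5A replicate 1. After scaling the HXT3 differences were 0.40 from S2A and 0.20 from wild-type. After quantile normalization they were 0.34 and 0.14. As a share of the mean wild-type response, S5A had 0.834 for HXT1, 0.829 for HXT5 and 0.677 for HXT3, and S2A 0.970, 0.893 and 1.15.

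Among the other genes, S5A minus wild-type came to 0.11 for HXT2 (95% interval -0.74 to 0.96), -0.13 for HXT4 (-0.94 to 0.68), -0.31 for HXT6 (-0.94 to 0.32), -0.21 for HXT7 (-0.91 to 0.48), -0.29 for SNF3 (-0.75 to 0.16) and 0.054 for RGT2 (-0.27 to 0.37). None was past the threshold (limma adjusted p = 0.352 to 0.882). Without wild-type replicate 2 the differences were 0.68 for HXT2, 0.34 for HXT4, 0.021 for HXT6, 0.18 for HXT7, -0.084 for SNF3 and 0.091 for RGT2, and without wild-type replicate 1 that of SNF3 was -0.54. The intervals of HXT2 and HXT4 allow differences of most of a log2 unit either way, while that of RGT2 allows at most 0.37. The S2A minus wild-type differences ran from -0.73 (HXT5) to 0.14 (RGT2; 95% interval -0.18 to 0.46), and that of HXT4 was -0.49 (-1.30 to 0.32). The HXT4 value was -0.019 without wild-type replicate 2 and -0.79 without wild-type replicate 1. The RGT2 value was 0.020 without S2A replicate 1 and 0.23 without S2A replicate 2. Without wild-type replicate 2 the wild-type means of HXT1, HXT2, HXT6, HXT7 and SNF3 were 3.16, -1.73, -0.56, -0.61 and 0.50. Each then lay below the S2A mean, so the S2A minus wild-type differences of these genes turned from negative to positive.

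The remaining 10 genes of the family that were looked up, HXT8 to HXT11, HXT13 to HXT17 and the galactose permease GAL2, had a value on only 4 to 8 of the 9 arrays. Of these, 7 had at least 2 values in each strain and could be fitted among 6254 such features. Only GAL2 was called. It was measured on 2 S5A arrays (3.32 and 1.70), 2 S2A arrays (2.78 and 3.41) and 3 wild-type arrays (1.77, 3.14 and 3.03). Its response was 2.51 in S5A, 3.09 in S2A and 2.65 in wild-type (limma adjusted p = 0.00197, 0.000507 and 0.000387, fit with at least 2 values per strain). In that fit 60.7%, 66.2% and 68.6% of features responded in S5A, S2A and wild-type. For S5A minus wild-type, S2A minus wild-type and S5A minus S2A, 5.5%, 0% and 1.41% were called, and none of the 7 fitted genes was.

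Of the enzymes that phosphorylate hexoses once they are inside the cell, HXK1, GLK1 and EMI2 rose in all 3 strains and HXK2 fell. HXK1, a hexokinase, rose by 1.21, 1.61 and 1.52 in S5A, by 2.92, 2.06 and 2.83 in S2A, and by 2.69, 2.39 and 2.65 in wild-type. GLK1, the glucokinase, rose by 1.90, 2.21 and 2.54 in S5A, by 3.41, 2.84 and 3.03 in S2A, and by 3.56, 3.87 and 3.59 in wild-type. For both genes every S5A array lay below every S2A and every wild-type array. Over all features the S5A arrays lay below those of S2A for 18.2% and below those of wild-type for 18.5%. EMI2, a close relative of GLK1, averaged 1.82 in S5A, 2.24 in S2A and 2.53 in wild-type. HXK2, the hexokinase that predominates on glucose, fell by 0.37 in S5A, by 0.49 in S2A and by 0.27 in wild-type (limma adjusted p = 0.00659, 0.000999 and 0.0264; the wild-type call did not hold without wild-type replicate 1, 0.0678, or 3, 0.202).

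Of these 4 genes, HXK1 and GLK1 rose less in S5A than in wild-type, 2 of 4 where 7.95% of all features were called. The difference was -1.13 for HXK1 (standard error 0.22; limma adjusted p = 0.0122) and -1.46 for GLK1 (0.20; 0.00555), and for EMI2 it was -0.71 (0.18; 0.0277, not past 0.025). HXK1 also rose less in S5A than in S2A, with a difference of -1.16 (adjusted p = 0.0199). The HXK1 difference from wild-type was -0.76 after scaling (0.0803) and -0.74 after quantile normalization (limma adjusted p = 0.07745). It did not pass when any S5A array (0.0273 to 0.0570) or wild-type replicate 1 (0.0264) or 3 (0.0473) was left out. That from S2A was -0.81 after scaling (0.0919) and did not pass when any S5A array (0.0401 to 0.0832), S2A replicate 1 (0.0567) or 3 (0.0639), or wild-type replicate 1 (0.02502) or 3 (0.0329) was left out, nor with only the arrays compared (0.0327), with at least 2 values per strain (0.0322) or after quantile normalization (-0.81, 0.0774). The GLK1 difference was -0.87 after scaling (0.0421) and -0.80 after quantile normalization (limma adjusted p = 0.0323). It also lost its call without S5A replicate 1 (0.0278). The EMI2 difference shrank to -0.28 after scaling (0.381) and to -0.17 after quantile normalization (0.593). It passed with the replicate number as a block (0.0195), with array weights (0.00422) and by Storey's q-value (0.0142). It also passed with only the arrays compared (0.0191), and without S2A replicate 1 (0.0135) or S2A replicate 2 (0.0202).

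Among the 11 genes between the sensors and the HXT promoters, 0 rose and 7 fell in S5A, 2 rose and 7 fell in S2A, and 2 rose and 8 fell in wild-type. Over all features 28.9%, 31.6% and 32.3% rose and 34.2%, 37.1% and 38.3% fell. MTH1, a corepressor gene, had a mean of 0.20 in S5A that did not pass (limma adjusted p = 0.293). It rose by 0.86 in S2A and 0.98 in wild-type (limma adjusted p = 0.000839 and 0.000356). STD1, the other corepressor gene, was called lower in each strain. Its mean was -0.55 in S5A, -0.30 in S2A and -0.57 in wild-type (limma adjusted p = 0.000989, 0.02295 and 0.00056). GRR1, the gene of an F-box protein, rose by 0.37 in wild-type. MIG1 and MIG3, which encode zinc-finger repressors of glucose-repressed genes, fell in wild-type by 1.39 and 1.41 (limma adjusted p = 1.16e-06 and 5.76e-05). The MTH1 difference between S5A and wild-type was -0.77 (adjusted p = 0.0509), and it passed without wild-type replicate 1 (0.0121). RGT1, the repressor gene, was not called in any strain (-0.13 in S5A, -0.18 in S2A and -0.097 in wild-type).

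MIG2, the third of these repressor genes, was the only 1 of the 11 called between strains (7.95% of all features in S5A against wild-type and 3.31% in S5A against S2A). Its ratios were -2.35, -2.32 and -2.02 in S5A, -1.24, -1.23 and -1.08 in S2A, and -1.41, -0.77 and -1.07 in wild-type. The S5A arrays lay below all others, a larger fall than in S2A or wild-type. Such a separation was seen for 18.2% of all features against S2A and 18.5% against wild-type. S5A minus wild-type was -1.14 (standard error 0.18; limma adjusted p = 0.00590) and S5A minus S2A was -1.05 (0.18; 0.0138). After scaling these were -1.51 and -1.43 (adjusted p = 0.0130 and 0.0162). The first did not pass when S5A replicate 1 (0.0310) or wild-type replicate 3 (0.0252) was left out, or with scaling and only the 6 arrays compared (0.0360). The second did not pass when any S5A array (0.0364 to 0.0638), any S2A array (0.0252 to 0.0494) or wild-type replicate 3 (0.0266) was left out.

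**Figure D5:**
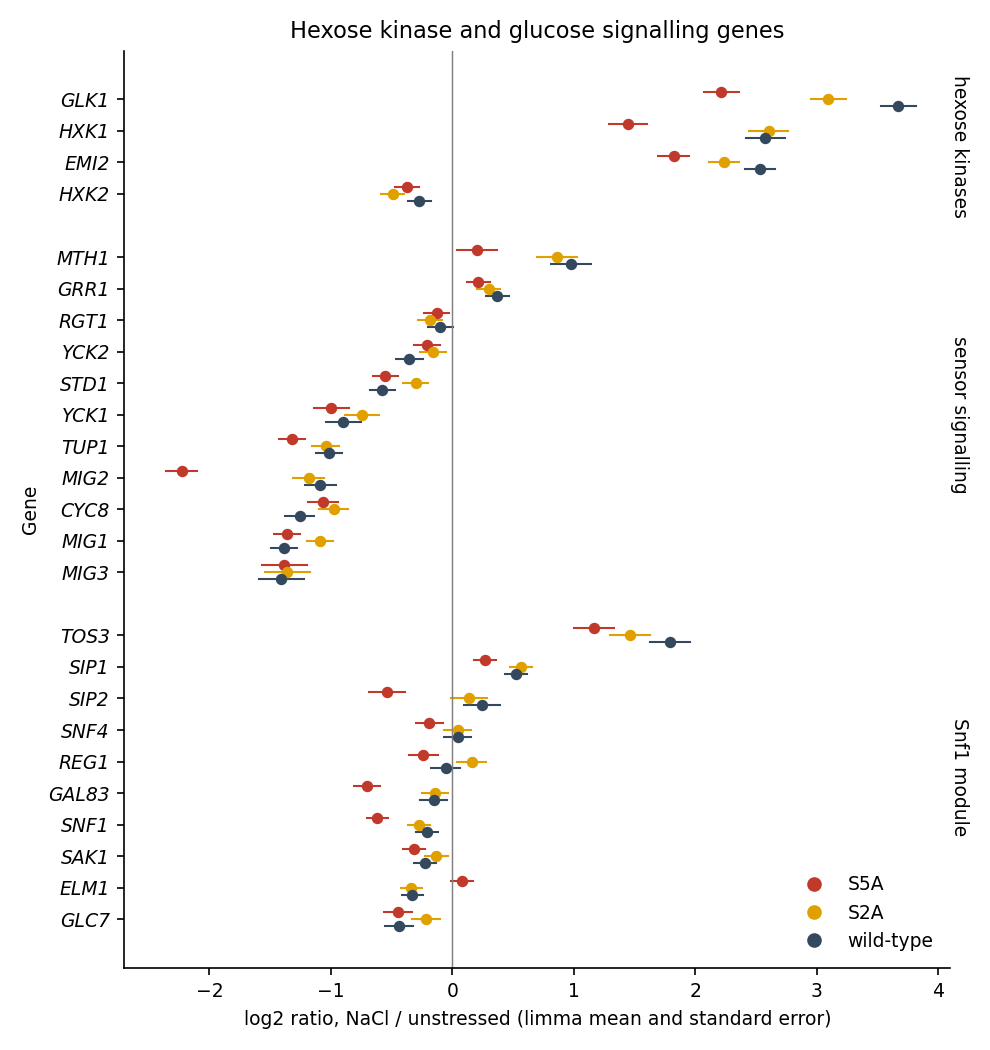
Log2 NaCl response (horizontal axis; point, limma mean; line, standard error) of 25 genes of hexose phosphorylation, sensor signalling and the Snf1 kinase module (vertical axis), by strain. The S5A means lie to the left of wild-type for GLK1, HXK1 and MIG2, by 1.46, 1.13 and 1.14.

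The Snf1 kinase acts when glucose is scarce, and the paper describes it as known to be activated by NaCl. The genes of this kinase, its partners and its regulators had mean responses within 1 log2 unit of 0 apart from TOS3. Of 10 genes, 2 rose and 5 fell in S5A, 2 rose and 2 fell in S2A, and 2 rose and 3 fell in wild-type, where 28.9% and 34.2%, 31.6% and 37.1%, and 32.3% and 38.3% of all features rose and fell in the same strains. TOS3, which encodes a kinase that activates Snf1, rose by 1.17 in S5A, 1.47 in S2A and 1.79 in wild-type, and SIP1, a Snf1 beta subunit gene, rose by 0.27, 0.57 and 0.53. GLC7, the catalytic subunit of protein phosphatase 1, fell in wild-type by 0.44 and ELM1, another Snf1-activating kinase, by 0.33. None of the 10 was called between strains, beside 7.95% of all features in S5A against wild-type, 0% in S2A against wild-type and 3.31% in S5A against S2A.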

How the data were processed

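RNA of S5A, S2A and wild-type cells was hybridized to 2-colour whole-genome tiled NimbleGen arrays, salt-treated against unstressed cells. Since the dyes were not swapped, a dye effect would remain in a response but cancel between strains. The authors normalized the deposited log2 ratios by procedures that the paper cites; the genome build and the method of summarising probes are not given in the sources used here. The log base follows the paper's legends. Symbols came from RefSeq locus tags (5984 of 6868 features matched).

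The 5645 features measured on every array were fitted with 1 mean per strain in limma 3.58.1 (lmFit, contrasts.fit and eBayes; R 4.3.3), with Benjamini-Hochberg adjustment over these features. Responses were called at an adjusted p below 0.05 and strain differences at 0.025 or less. The paper's methods give these levels for Q-values, for the wild-type response and for triplicated deletion mutants. They state no gene-level cut-off for the CTD strains. Exact permutation of 3 arrays against 3 cannot go below p = 0.10 and was not used. The alternatives were centring, quantile normalization, scaling to a common median absolute deviation, at least 2 values per strain, a replicate block, robust eBayes, array weights, Storey's q-value, exchanged thresholds, only the arrays compared and each array left out; 2 that combine scaling with fewer arrays were chosen after seeing the data. The code was tested on simulated data. Precision is limited by the number of arrays.

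The study calls the strains paired. Same-numbered arrays deviated together, with correlations across features of 0.166 to 0.231 for S5A and wild-type, 0.149 to 0.388 for S2A and wild-type, and 0.0616 to 0.129 for S5A and S2A. Promoter and protein sequences were not used here. Named pathway genes are those called between strains and the 2 highest and 2 lowest called responses in wild-type in each list. RGT1 and STD1 were added after their values were seen. The genes and lists were chosen with earlier results of these data known. Single-channel intensities were not used here.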

Additional observations from a re-analysis of the deposited data

Results flagged for a closer look

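A difference between strains in the NaCl response passed its test for 3 genes, none of them a transporter or sensor. The genes searched were the 9 transporters and sensors, 11 of sensor signalling, 10 of the Snf1 module and 4 hexose kinases. Over all features 7.95% were called for S5A minus wild-type, 0% for S2A minus wild-type and 3.31% for S5A minus S2A. MIG2 differed by -1.14 between S5A and wild-type and by -1.05 between S5A and S2A (limma adjusted p = 0.00590 and 0.0138), lower on 3 of 3 S5A arrays in each case. HXK1 differed by -1.13 between S5A and wild-type and by -1.16 between S5A and S2A (adjusted p = 0.0122 and 0.0199), and GLK1 by -1.46 between S5A and wild-type (adjusted p = 0.00555), again with all 3 S5A arrays below those of the other strain. The HXK1 and GLK1 differences from wild-type were -0.76 and -0.87 after scaling. After quantile normalization they were -0.74 and -0.80 (limma adjusted p = 0.07745 and 0.0323), neither past 0.025. The part of the narrower S5A arrays in these differences was not tested further. Each call named here was lost under some of the alternatives given above.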

How the results depend on the processing

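Of the counts of called transporter and sensor genes under alternatives, 108 were within 1.5 times the count reported and 5 were not. The response count of 7 in S5A was 4 with the exchanged threshold and 4 to 9 with single arrays left out, and the count of 0 for S5A minus wild-type was 1 with only the arrays compared and 0 to 1 with single arrays left out. That 1 gene was HXT5. The replicate block gave 6, 6 and 7 responding genes in S5A, S2A and wild-type and 0 for each strain difference. Among the genes recomputed under the alternatives, the block changed the calls of HXT6 in S5A, HXT7 in S2A and EMI2 between S5A and wild-type, and no other.

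Signs of S5A minus wild-type turned after quantile normalization for HXT1 (0.22), HXT2 (-0.22), HXT4 (0.10) and RGT2 (-0.0057), and after scaling for HXT1 (0.11), HXT2 (-0.068), HXT4 (0.081), HXT5 (0.12) and RGT2 (-0.0057), with the same values where scaling was combined with fewer arrays. Array weights gave 0.10 for HXT4. For HXT1, S5A minus S2A became 0.18 and 0.13 after quantile normalization and scaling. The cause was not tested. With single arrays left out, S5A minus wild-type ran from -0.21 to 0.68 for HXT2, -0.43 to 0.34 for HXT4, -0.60 to 0.021 for HXT6 and -0.59 to 0.18 for HXT7. Array weights brought the calls of HXT7 in S5A (0.0188), RGT2 in S2A (0.0327) and HXT6 in wild-type (0.0286), and Storey's q-value those of HXT7 in S5A (0.0249) and RGT2 in S2A (0.0251). The response in wild-type ran from -0.56 to 0.063 for HXT6 and -0.61 to 0.17 for HXT7.

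Over all features, the 449 calls of S5A minus wild-type ran from 0 (scaled, only the arrays compared) to 1284 (array weights), and the 187 of S5A minus S2A from 0 to 464. Those of S2A minus wild-type stayed at 0, with 479 at an unadjusted p below 0.05.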

Other observations

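The transporter genes apart from HXT2 lie in clusters. The flanking genes, taken by their position, did not share a single response on chromosome VIII. Those measured on chromosome IV had means below 0 in all 3 strains. On chromosome VIII the order is HXT4, HXT1, HXT5 and then PAL2, and the mean responses in S5A were 0.60, 2.80, 5.61 and 1.71, those in S2A 0.24, 3.26, 6.04 and 2.39, and those in wild-type 0.73, 3.36, 6.76 and 2.17. The next gene, SFB3, fell in all 3 strains (-1.07, -0.89 and -0.72), and so did MSR1, on the other side of HXT4 (-0.34, -0.43 and -0.25). YNG2, beyond MSR1, averaged 0.63 in S5A, 0.67 in S2A and 0.36 in wild-type. On chromosome IV the order is HXT7, HXT6, YDR344C and HXT3, followed by SVF1, which averaged -1.36 in S5A, -1.84 in S2A and -1.76 in wild-type. MRP1, the next gene, averaged -0.71, -0.58 and -0.57 in the same strains. YDR341C, on the other side of HXT7, averaged -0.22, -0.73 and -0.59.

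The short reading frames between the transporters were measured poorly. YHR095W, between HXT1 and HXT5, ranged from -0.71 to 0.95 in S5A, from -1.57 to 1.08 in S2A and from -0.71 to 3.62 in wild-type, and was not called in any strain. YDR344C had a value on 8 arrays and YHR093W on 4. The strand that the probes read is not given in the sources used here, so signal of overlapping transcripts cannot be told apart.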
